A study of Mus musculus with 8 samples.

Results

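The core circadian clock is the set of transcription factors and repressors that drives daily rhythms of transcription in nearly all mouse cells. The genes described here are Arntl, Clock, Npas2, Per1, Per2, Per3, Cry1 and Cry2, found by their symbol in the platform annotation, which gave 1 probe set each, so 8 of the 22206 probe sets on the array. All 8 passed the filter on low values, which kept 14804 probe sets for testing. Their values were compared in the hippocampus and the cerebral cortex of male mice aged 12 weeks that had received the neonicotinoid insecticide clothianidin for 2 weeks at 50 mg/kg/day, a dose the submitters give as one without observed adverse effect, or the vehicle with 1% DMSO. The 4 groups were exposed hippocampus, control hippocampus, exposed cortex and control cortex, with 2 arrays each. Arrays carry the number in their label, 3 and 6 for exposed and 1 and 6 for control arrays in both tissues. No transgene or deletion is named for any group, and the sources used here give neither the strain nor the hour of dissection. Nothing says that each array of a group is a different mouse; the p-values then reflect only how far these arrays spread, which may be technical.

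In the clock, ARNTL (also called BMAL1) pairs with CLOCK or with its relative NPAS2 and binds E-box sequences to activate Per and Cry genes. The PER and CRY proteins then enter the nucleus and repress that activity, which closes a feedback loop of about a day. A further loop runs through the nuclear receptors NR1D1 and NR1D2, which repress Arntl, and the ROR receptors, which activate it. NPAS2 is known from the mouse forebrain, and Per1 is also induced by neuronal activity and by glucocorticoids. Because the transcripts of most of these genes cycle, a level read at a single time holds the phase as well as the amplitude of the rhythm.

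Values are log2 array values, so a difference of 1 is a 2-fold difference. Array medians ran from 5.37 to 5.4 in hippocampus and from 5.21 to 5.25 in cortex, and precision is limited by how few arrays there are. The tissue labels matched their markers: of 7 hippocampal neuron markers tested, 7 passed limma's adjusted p of 0.05 as higher in hippocampus than in cortex in both arms. Of 8 cortical neuron markers, 7 had a lower hippocampal mean in exposed and 8 in control arrays, and 4 and 6 of them passed. Choroid plexus markers stood apart in hippocampus control 1, with a mean log2 value of 10.06 over 12 genes against 4.42 to 4.65 in the other 3 hippocampus arrays. In cortex control 6 the mean was 5.36 against 3.75 to 3.87, and its Ttr value was 15.41. For the clock genes, values without these 2 arrays are given where a call or direction changed or a difference moved by over 1.5 times. That fit leaves 1 control array per tissue. Differences of other genes are given with all arrays only, and some of them also rest on these arrays. In such tissue pieces, fewer cells of a type and less RNA per cell cannot be told apart.

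RefSeq start regions (build GRCm38.p6) matched 7 of the 8 genes, with 11 annotated starts. The 250 bases before the start are shown for Npas2, Per1 and Cry1, the members whose tissue difference passed the test below, to let their clock and signal elements be compared. Npas2 lies at chr1:39194022-39194271 on the + strand, the Per1 regions at chr11:69098699-69098948 and chr11:69099902-69100151 on the + strand, and Cry1 at chr10:85185055-85185304 on the - strand. Capitals mark matches on either strand to the E-box CACGTG, its variant CACGTT, the cAMP response element core TGACG and the ROR element core AGGTCA.
Npas2: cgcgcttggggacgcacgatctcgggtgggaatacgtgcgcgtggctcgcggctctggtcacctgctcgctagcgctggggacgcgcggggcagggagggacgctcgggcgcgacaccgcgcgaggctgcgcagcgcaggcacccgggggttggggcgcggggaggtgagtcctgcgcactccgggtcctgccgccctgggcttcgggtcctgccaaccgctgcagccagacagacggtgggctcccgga
Per1 first start: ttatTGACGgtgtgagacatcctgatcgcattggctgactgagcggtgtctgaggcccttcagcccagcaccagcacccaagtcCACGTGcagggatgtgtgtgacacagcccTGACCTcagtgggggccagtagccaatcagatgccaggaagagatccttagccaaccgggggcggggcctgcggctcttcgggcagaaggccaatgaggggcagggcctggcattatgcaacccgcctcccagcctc
Per1 second start: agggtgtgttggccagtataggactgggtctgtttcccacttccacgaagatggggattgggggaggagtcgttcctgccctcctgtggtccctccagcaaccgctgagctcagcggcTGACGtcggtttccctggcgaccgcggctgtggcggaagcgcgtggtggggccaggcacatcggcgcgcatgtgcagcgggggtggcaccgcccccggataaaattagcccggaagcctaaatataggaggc
Cry1: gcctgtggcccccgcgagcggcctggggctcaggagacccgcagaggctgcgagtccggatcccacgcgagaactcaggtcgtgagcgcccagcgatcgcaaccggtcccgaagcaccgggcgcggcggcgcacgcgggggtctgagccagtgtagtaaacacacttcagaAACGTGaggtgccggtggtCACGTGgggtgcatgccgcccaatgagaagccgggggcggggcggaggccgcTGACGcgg

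The E-box stood at -166 from the first Per1 start and at -60 from the Cry1 start, counted to the left end of the match, with -1 the base next to the start. Of 32851 annotated starts, 6.02% held it in this window. CACGTT (3.85% of starts) was found at -79 in Cry1 and at -166 in Cry2. TGACG (17.8% of starts) was found at both Per1 starts (-246 and -132), in Cry1 (-8) and in Cry2 (-209). AGGTCA (14% of starts) was found at the first Per1 start (-137) and at the third Clock start (-119). None of the 4 was found in the windows of Npas2, Arntl or Per3. Overlap between matches did not occur in the regions shown, and a match is a description of the letters only.

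The first comparison asked whether clothianidin changed the clock genes in hippocampus. No member passed the test: limma called 0 of 8, against 0.00675% of all probe sets (1 of 14804), and 0 of 8 had an unadjusted p under 0.05. Among the activators, Arntl measured 8.92 and 9.80 in exposed hippocampus (arrays 3 and 6), against 9.53 and 9.89 in control hippocampus (arrays 1 and 6). Exposed array 3 was the lowest of all 8 arrays for this gene, while exposed array 6 lay among the controls. Its difference was -0.35 (SE 0.30, 95% interval -1.01 to 0.31, limma adjusted p = 0.96). Clock, the partner with acetyltransferase activity, measured 12.73 and 12.98 in exposed against 13.01 and 12.37 in control hippocampus, so that both exposed values fell between the controls (difference 0.16, SE 0.29). Npas2 measured 9.28 and 9.61 in exposed against 9.28 and 9.30 in control hippocampus (difference 0.16, SE 0.23), with array 6 alone higher.

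Per1, the period gene with the fastest response to stimuli, had the largest hippocampal difference of the 8. It measured 9.31 and 9.27 in exposed hippocampus, against 8.31 and 8.94 in control hippocampus, and both exposed arrays lay above both controls. The means were 9.29 ± 0.03 in exposed and 8.63 ± 0.45 in control hippocampus (SD, n = 2 each), a difference of 0.67 or 1.59-fold (SE 0.32, 95% interval -0.03 to 1.36). It missed the threshold of limma's test (adjusted p = 0.85). Its difference ranked 499 from the highest of 14804. The difference was 0.35 without control array 1, the array high in choroid plexus genes, and 0.98 without control array 6. In the same arrays the cortical marker mean was 8.32 and 7.95 in exposed against 7.59 and 7.59 in control hippocampus. Among these markers Tshz2 moved most (11.29 and 10.35 in exposed, 8.33 and 8.24 in control hippocampus). The means of Fezf2, Tle4 and Rspo1 were lower in exposed than in control hippocampus. Per1 was itself higher in cortex (below). The part of these markers in the Per1 value was not tested.

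Per2 and Per3, which encode the other period repressors, overlapped between the arms. Per2 measured 6.66 and 7.09 in exposed against 6.86 and 7.29 in control hippocampus (difference -0.20, SE 0.39). Per3 measured 7.21 and 7.83 in exposed against 7.39 and 7.79 in control hippocampus (difference -0.07, SE 0.40). In both genes array 6 was the higher of each pair. Cry1, the repressor that acts late in the cycle, measured 5.70 and 5.92 in exposed and 6.19 and 6.20 in control hippocampus, without overlap (difference -0.39, SE 0.27, adjusted p = 0.93). Cry2 measured 12.55 and 13.10 in exposed and 12.24 and 13.05 in control hippocampus (difference 0.18, SE 0.33); without control array 1 it was -0.23. Without the 2 arrays high in choroid plexus genes the difference was -0.53 for Arntl, 0.49 for Clock, -0.42 for Per2 and -0.27 for Per3. Groups without overlap numbered 2 of 8 members, Per1 and Cry1, against 30.7% of all probe sets tested.

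**Figure D1:**
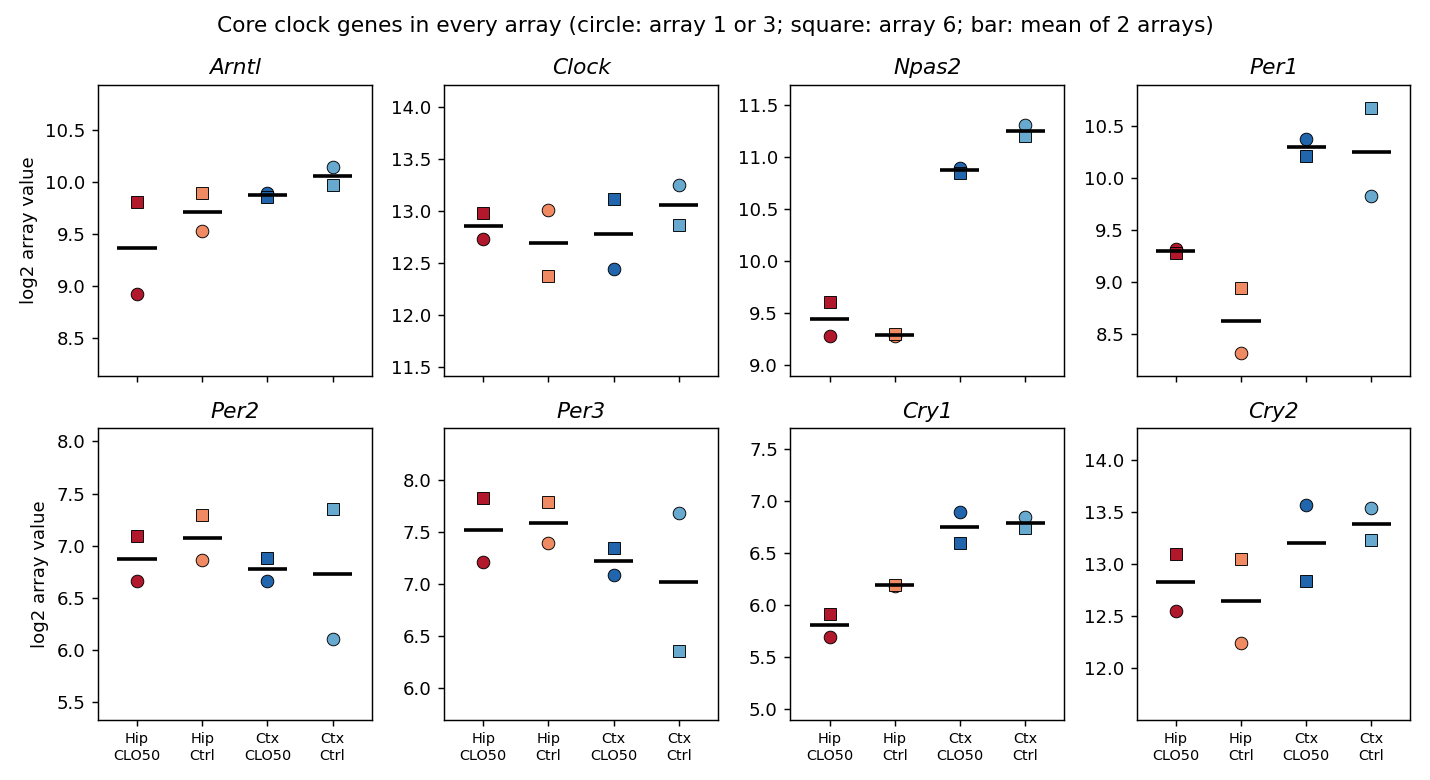
Log2 array values of the 8 clock genes in exposed (CLO50) and control (Ctrl) hippocampus (Hip) and cortex (Ctx); circles are arrays 1 or 3, squares arrays 6, bars the mean of 2 arrays, and every panel spans the same range. Npas2, Per1 and Cry1 lie lower in all 4 hippocampus arrays than in all 4 cortex arrays, while the control cortex arrays lie far apart for Per1, Per2 and Per3.

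In cortex the same question gave 0 of 8 members called, again against 0.00675% of all probe sets (1 of 14804), and 0 of 8 with an unadjusted p under 0.05. Npas2 had the largest difference. It measured 10.90 and 10.85 in exposed cortex, against 11.31 and 11.20 in control cortex, and the groups did not overlap (difference -0.38, SE 0.23, 95% interval -0.89 to 0.13, limma adjusted p = 0.82). Arntl measured 9.89 and 9.85 in exposed against 10.14 and 9.97 in control cortex, also without overlap (difference -0.18, SE 0.30). Clock measured 12.44 and 13.11 in exposed against 13.25 and 12.86 in control cortex (difference -0.28, SE 0.29), where exposed array 3 was low. Groups without overlap numbered 2 of 8, against 38.5% of all probe sets tested.

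The repressors in cortex showed small mean differences over a wide spread between the control arrays. Per1 measured 10.37 and 10.21 in exposed cortex, against 9.82 and 10.67 in control cortex (difference 0.05, SE 0.32). Per2 measured 6.66 and 6.88 in exposed cortex, against 6.10 and 7.35 in control cortex (difference 0.05, SE 0.39). Per3 measured 7.09 and 7.35 in exposed cortex, against 7.68 and 6.36 in control cortex (difference 0.20, SE 0.40). For all 3 period genes both exposed values fell between the 2 controls, and control array 1 was low for Per1 and Per2 but high for Per3. Without control array 1 the difference was -0.38 for Per1, -0.58 for Per2 and 0.86 for Per3, and without control array 6 it was 0.47, 0.67 and -0.46, so each direction rested on which control array was kept.

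Cry1 measured 6.90 and 6.60 in exposed cortex, against 6.85 and 6.74 in control cortex (difference -0.05, SE 0.27). Cry2 measured 13.57 and 12.84 in exposed cortex, against 13.54 and 13.23 in control cortex (difference -0.18, SE 0.33), and exposed array 6 was the lowest of the 4. Both cryptochromes therefore overlapped between the arms. Without the 2 arrays high in choroid plexus genes the cortical difference was -0.48 for Clock, -0.10 for Cry1 and -0.34 for Cry2, and the period genes took the values given above without control array 6. Over the 8 genes the median difference was 0.04 in hippocampus and -0.11 in cortex, against 0.01 and -0.03 over all probe sets tested in those tissues.

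**Figure D2:**
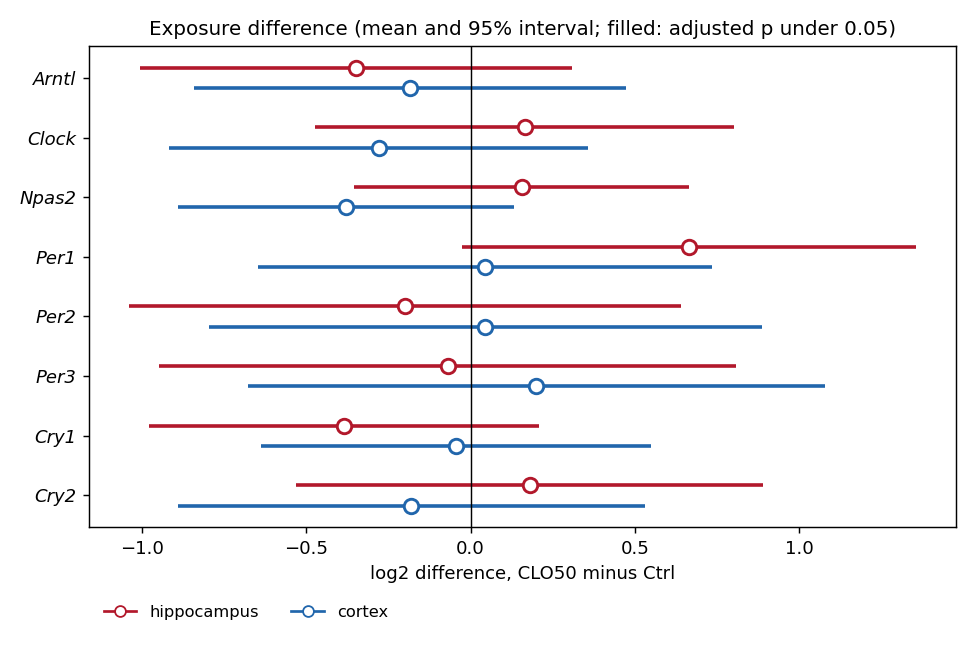
Exposure differences (CLO50 minus Ctrl, log2) of the 8 clock genes in hippocampus (red) and cortex (blue), with 95% intervals from limma; all symbols are open because no member passed an adjusted p of 0.05. Every interval includes 0, and the Per1 interval in hippocampus, -0.03 to 1.36, reaches farthest.

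The intervals state what these arrays could not exclude. The bound farthest from 0 ran from 0.67 for Npas2 to 1.36 for Per1 in hippocampus, and from 0.64 for Cry1 to 1.08 for Per3 in cortex, so changes of up to 2.56-fold (Per1, hippocampus) or 2.11-fold (Per3, cortex) lay within them. The test of the difference between the tissues called 0 of 8 members, against 0% of all probe sets (0 of 14804 called, 511 with an unadjusted p under 0.05). Its value was 0.62 for Per1 (SE 0.45, limma adjusted p = 0.998), 0.54 for Npas2 (SE 0.33), 0.45 for Clock (SE 0.41) and 0.36 for Cry2 (SE 0.46). These exposure differences were higher in hippocampus than in cortex. The value was -0.34 for Cry1 (SE 0.39), -0.27 for Per3 (SE 0.57), -0.25 for Per2 (SE 0.55) and -0.165 for Arntl (SE 0.43). By value 4 members were higher and 4 lower. Without the 2 control arrays high in choroid plexus genes the order differed: the value was -1.09 for Per2, 0.96 for Clock, 0.58 for Npas2, -0.26 for Arntl, 0.19 for Per3, -0.12 for Per1 and 0.11 for Cry2. Averaged over the tissues, exposure called 0 of 8, against 0.00675% of all probe sets (1 of 14804). The averages ran from -0.27 for Arntl (SE 0.23) to 0.36 for Per1 (SE 0.26), and that of Cry2 was 0.00 (SE 0.20).

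A second comparison set hippocampus against cortex within each arm. In control arrays 2 of 8 members passed, Npas2 and Per1, both lower in hippocampus, against 7.63% of all probe sets lower and 17.7% in either direction. In exposed arrays 2 of 8 passed, Npas2 and Cry1, both lower in hippocampus, against 5.22% lower and 14.5% in either direction. With 8 members, 2 calls rest on the single genes and are given as such. Groups without overlap numbered 4 of 8 in exposed arrays, against 57% of all probe sets, and 5 of 8 in control arrays, against 59.2%.

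Npas2 differed most between the tissues. It measured 9.28 and 9.61 in exposed hippocampus against 10.90 and 10.85 in exposed cortex, a difference of -1.43 or 2.69-fold lower (SE 0.23, 95% interval -1.94 to -0.92, limma adjusted p = 0.0017). In control arrays it measured 9.28 and 9.30 in hippocampus against 11.31 and 11.20 in cortex, a difference of -1.97 or 3.90-fold lower (SE 0.23, 95% interval -2.48 to -1.45, adjusted p = 0.00014). All 4 hippocampus arrays lay more than 1 log2 unit below all 4 cortex arrays. Both calls held under each of the 18 alternatives run (adjusted p 0.00058 to 0.020 in exposed and 3.9e-05 to 0.0079 in control arrays). The change in this tissue difference between the arms, 0.54 (SE 0.33, 95% interval -0.19 to 1.26), did not pass its test (limma adjusted p = 1.0).

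Per1 was lower in hippocampus as well. In exposed arrays it measured 9.31 and 9.27 in hippocampus against 10.37 and 10.21 in cortex, a difference of -1 or 2-fold lower that missed the threshold (SE 0.32, limma adjusted p = 0.055; 0.0091 to 0.21 over the alternatives). It passed under 9 of the 18 alternatives, among them quantile normalization (-1.15, limma adjusted p = 0.045) and each array centred on its median (-1.14, adjusted p = 0.034). It also passed, with the difference still at -1, without the 2 arrays high in choroid plexus genes and without any single control array. In control arrays it measured 8.31 and 8.94 in hippocampus against 9.82 and 10.67 in cortex, a difference of -1.62 or 3.07-fold lower (SE 0.32, 95% interval -2.31 to -0.93, adjusted p = 0.0042). The control call was lost without cortex control 6 (-1.20, adjusted p = 0.061) and without the 2 arrays high in choroid plexus genes (-0.88, adjusted p = 0.18). In exposed arrays Cry1 measured 5.70 and 5.92 in hippocampus and 6.90 and 6.60 in cortex (difference -0.94 or 1.92-fold lower, SE 0.27, adjusted p = 0.038). In control arrays Cry1 measured 6.19 and 6.20 in hippocampus and 6.85 and 6.74 in cortex (difference -0.60, SE 0.27, adjusted p = 0.15). The exposed call for Cry1 was lost without any of the 4 exposed arrays (differences -1.09 to -0.79, adjusted p 0.082 to 0.21), without cortex control 1 or 6 (0.062 each), without both arrays high in choroid plexus genes (0.061) and with no filter on low values (0.057).

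**Figure D3:**
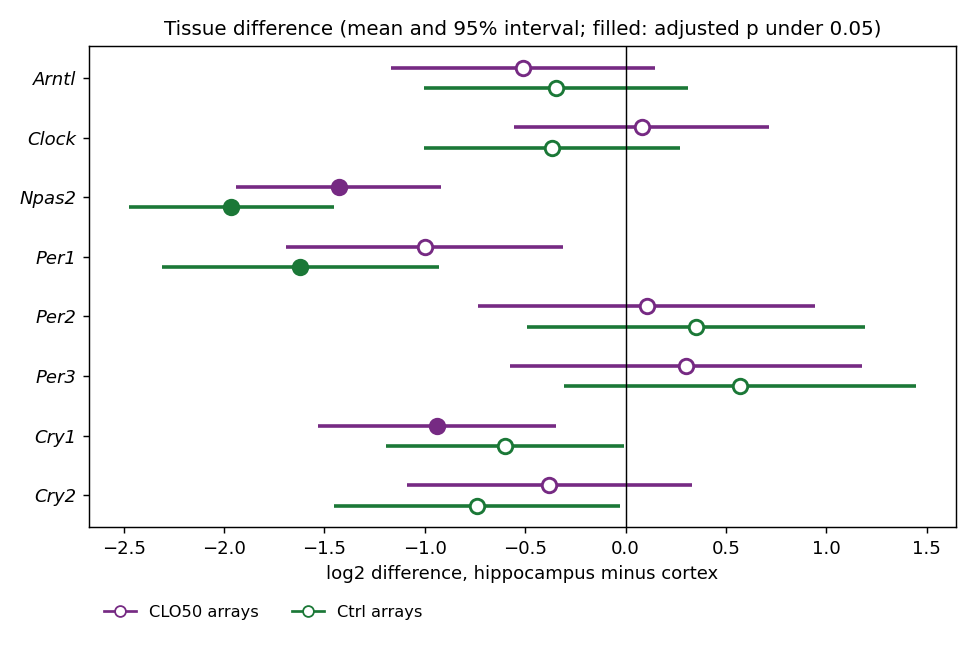
Tissue differences (hippocampus minus cortex, log2) of the 8 clock genes in exposed (purple) and control (green) arrays, with 95% intervals from limma; filled symbols passed an adjusted p of 0.05. Npas2 lies at -1.43 and -1.97, Per1 at -1 and -1.62 and Cry1 at -0.94 and -0.60, while Per2 and Per3 lie right of 0.

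The other members did not pass in either arm. Arntl differed by -0.51 (SE 0.30) in exposed and -0.35 (SE 0.30) in control arrays, and its hippocampus and cortex values did not overlap in either arm. Cry2 differed by -0.38 (SE 0.33) in exposed and -0.74 (SE 0.33, adjusted p = 0.14) in control arrays. Clock differed by 0.08 (SE 0.29) in exposed and -0.37 (SE 0.29) in control arrays. Per2 had higher hippocampal means, by 0.11 (SE 0.39) in exposed and 0.35 (SE 0.39) in control arrays, as had Per3, by 0.30 (SE 0.40) and 0.57 (SE 0.40). With each array centred on its median the exposed difference was -0.06 for Clock and -0.04 for Per2, and with quantile normalization that of Per2 was -0.05, so these signs depend on the scaling. Without the 2 arrays high in choroid plexus genes the control difference was -0.88 for Clock, 1.19 for Per2, 0.11 for Per3 and -0.49 for Cry2.

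Scaling mattered here because the median difference over all probe sets tested was 0.12 in exposed and 0.10 in control arrays as deposited. Centring each array on its median moved it by -0.14 and -0.16, and quantile normalization by -0.12 and -0.09. Higher calls made up 63.9% of all calls in exposed and 56.9% in control arrays as deposited, 49.1% and 41.0% after centring, and 51.0% and 49.1% after quantile normalization. Npas2, Per1 and Cry1 stayed lower in hippocampus under these settings.

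The order of the 4 groups differed between genes. For Npas2 the means were 9.45 in exposed hippocampus, 9.29 in control hippocampus, 10.88 in exposed cortex and 11.26 in control cortex (SD 0.23, 0.01, 0.04 and 0.08, n = 2 each), and only the hippocampal groups overlapped among neighbours. For Per1 they were 9.29 in exposed hippocampus, 8.63 in control hippocampus, 10.29 in exposed cortex and 10.25 in control cortex (SD 0.03, 0.45, 0.11 and 0.60), and only the cortical groups overlapped. For Cry1 they were 5.81 in exposed hippocampus, 6.20 in control hippocampus, 6.75 in exposed cortex and 6.80 in control cortex (SD 0.16, 0.01, 0.21 and 0.08), again with overlap only in cortex. Arntl ran from control cortex, the highest (10.06), through exposed cortex (9.87) and control hippocampus (9.71) to exposed hippocampus (9.36), and only the first pair of neighbours did not overlap. In Clock, Per2, Per3 and Cry2 every neighbouring pair of groups overlapped.

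Relative to the mean of the 4 arrays of a tissue, single arrays deviated in different members. Hippocampus exposed 3 was 0.62 below its tissue mean for Arntl and 0.35 above it for Per1, and was also lowest for Per2, Per3 and Cry1 in that tissue. Hippocampus control 1 was low for Per1 (-0.65) and for Cry2 (-0.50). Cortex control 1 was low for Per1 (-0.45) and Per2 (-0.65) and high for Per3 (0.56), and cortex control 6 was the reverse in all 3 (0.40, 0.60 and -0.76). Per3 had the largest SD of these deviations, 0.42 over 8 arrays, and Cry1 (0.18) and Npas2 (0.18) the smallest. The probe sets most like Per3, by the root mean square difference of the deviations over the 8 arrays among 13240 candidates, were those of Gm3238 (0.13), Zfp810 (0.13), Fntb (0.14), Abcc10 (0.15) and Mdga1 (0.16), none of them a listed clock gene.

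**Figure D4:**
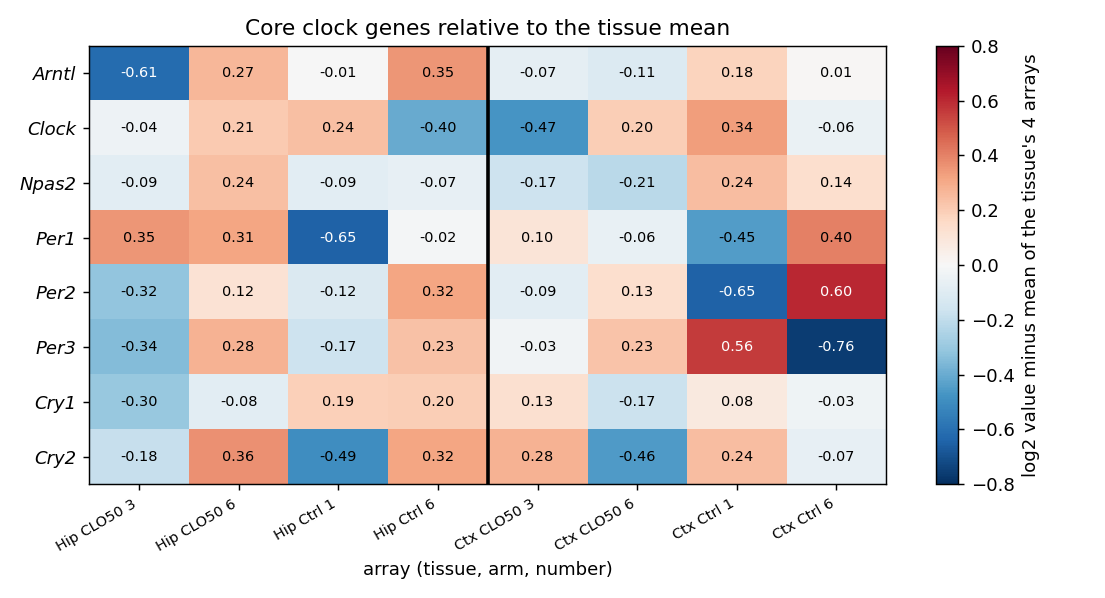
Log2 values of the 8 clock genes minus the mean of the 4 arrays of the same tissue, by array, with hippocampus left of the line and exposed arrays left of controls; red is above and blue below the tissue mean. Per2 and Per3 deviate in opposite directions in the 2 control cortex arrays (-0.65 and 0.56 in control 1, 0.60 and -0.76 in control 6).

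Other genes of the clock were described from lists that hold no member. Of 12 stabilising-loop and output genes, 11 were tested, and 0 passed for exposure in either tissue. In hippocampus 9 of the 11 had higher values with exposure, with a median difference of 0.69 against 0.01 over all probe sets, and in cortex 5 of 11, with a median of -0.06 against -0.03. The mean of the 8 cortical neuron markers was 8.32 and 7.95 in exposed against 7.59 and 7.59 in control hippocampus. Tshz2 moved most among them, while Fezf2, Tle4 and Rspo1 had lower means with exposure. Of the 11 genes, 9 had lower means in hippocampus than in cortex in both arms. The part of these markers in the shift was not tested. The 3 with the smallest p in hippocampus were Nr1d2, Bhlhe41 and Hlf. Nr1d2, a repressor of Arntl, measured 12.06 and 11.81 in exposed against 11.11 and 11.08 in control hippocampus (difference 0.84, SE 0.22, adjusted p = 0.77). Bhlhe41, which encodes a repressor at E-boxes, measured 11.61 and 11.72 in exposed against 10.74 and 10.98 in control hippocampus (difference 0.81, SE 0.24), and neither gene overlapped between the arms. In cortex the 3 with the smallest p were Ciart (0.63, SE 0.36), Rorb (-0.63, SE 0.37) and Tef (-0.38, SE 0.29). Ciart measured 8.20 and 8.63 in exposed against 8.36 and 7.21 in control cortex, with control array 6 alone low. Rorb measured 10.66 and 10.81 in exposed against 11.98 and 10.75 in control cortex, with control array 1 alone high. Both overlapped between the arms, while Tef did not (5.62 and 5.58 in exposed, 5.97 and 5.99 in control cortex).

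Between the tissues, 4 of the 11 passed the test as lower in hippocampus in exposed arrays, against 5.22% of all probe sets, and 8 of the 11 in control arrays, against 7.63%; 0 passed as higher. By value 9 were lower and 2, Bhlhe41 and Tef, were higher in both arms. Rora, an activator of Arntl, differed by -1.97 in exposed arrays (SE 0.26, limma adjusted p = 0.00044) and by -2.58 in control arrays (SE 0.26, adjusted p = 4.1e-05). Nr1d1, whose product represses Arntl, differed by -1.60 (SE 0.29) in exposed and -2.38 (SE 0.29) in control arrays. Hlf, an output factor of the PAR bZIP family, differed by -1.99 (SE 0.28) and -2.83 (SE 0.28), and Ciart, which encodes a repressor of the activator complex, by -1.85 (SE 0.36) and -2.04 (SE 0.36). Nr1d2, Bhlhe40, Dbp and Rorb passed in control arrays and missed the threshold in exposed arrays, with control differences of -1.14, -1.22, -2.02 and -1.29, and the test of the difference between the arms called none of the 11.

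**Figure D5:**
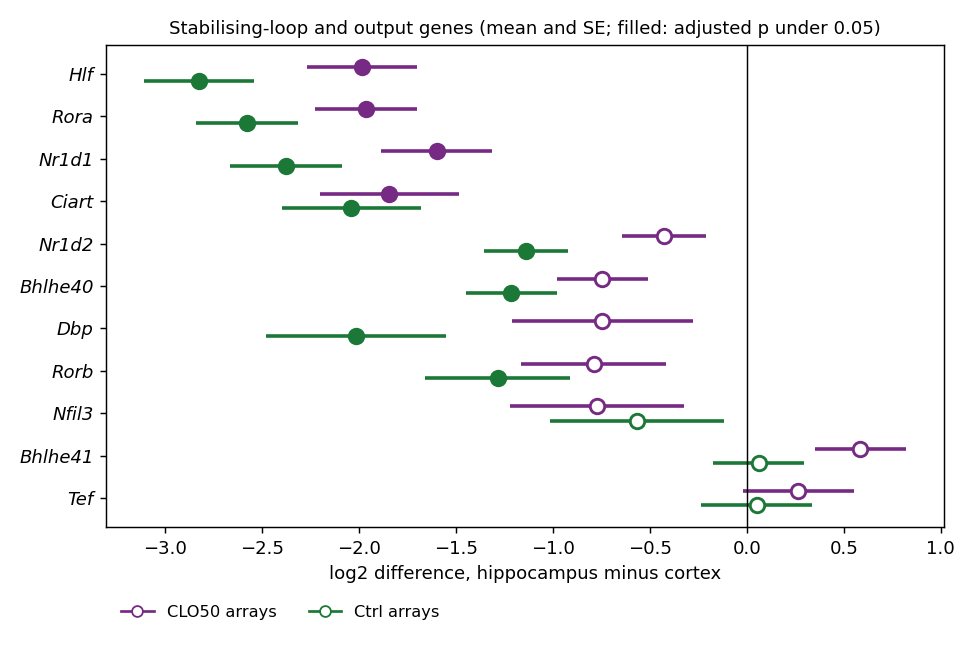
Tissue differences (hippocampus minus cortex, log2) of the 11 tested stabilising-loop and output genes in exposed (purple) and control (green) arrays, with bars of 1 SE; filled symbols passed an adjusted p of 0.05. The 4 genes filled in both arms, Hlf, Rora, Nr1d1 and Ciart, lie between -2.83 and -1.60.

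Enzymes that modify PER and CRY proteins numbered 8 tested of 9 listed. Of these 0 passed for exposure in either tissue, with 3 of 8 higher in hippocampus and 4 of 8 in cortex by value. The smallest p were those of Usp2, a deubiquitinase (0.58, SE 0.34), in hippocampus and Csnk1e, the casein kinase that phosphorylates PER (-0.50, SE 0.23, adjusted p = 0.80), in cortex. Between the tissues 2 of the 8 passed in each arm, against 14.5% of all probe sets in exposed and 17.7% in control arrays, in either direction. Csnk1e was lower in hippocampus, with differences of -1.31 in exposed and -1.65 in control arrays (limma adjusted p = 0.0024 and 0.00039), while its relative Csnk1d was higher by 0.69 in exposed arrays (adjusted p = 0.043) and the ubiquitin ligase gene Fbxw11 by 0.78 in control arrays (adjusted p = 0.026). Cofactors of the activator and repressor complexes numbered 10 tested of 12, and 0 passed in any of these comparisons. Among them Hdac3 differed by 0.73 (SE 0.26) in exposed cortex and Cipc, which encodes a CLOCK interacting repressor, by 0.70 (SE 0.28) in exposed hippocampus.

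Genes that respond to neuronal activity or to glucocorticoids, the inducers of Per1 named above, were set beside it. Of 18 immediate early genes tested, 0 passed in exposed hippocampus, with 13 higher by value and a median of 0.19. In exposed cortex 1 passed, Nr4a2 (lower, -2.00, SE 0.24, limma adjusted p = 0.037), against 0.00675% of all probe sets (1 of 14804). There 16 were lower by value, with a median of -0.76, while Per1 differed by 0.05. The mean of the list was 10.90 in cortex control 1 and 9.34 to 9.55 in the other 3 cortex arrays, and Per1 was lowest of these in that same array. Of 13 glucocorticoid response genes tested, 0 passed for exposure in either tissue. By value 7 were higher and 6 lower in exposed hippocampus (median 0.19), and 8 higher and 5 lower in exposed cortex (median 0.11). Tsc22d3, a glucocorticoid-induced leucine zipper gene, measured 10.56 and 9.91 in exposed against 8.81 and 9.53 in control hippocampus (difference 1.07, SE 0.35, limma adjusted p = 0.78). There the kinase gene Sgk1 differed by 0.88 (SE 0.42) and Ddit4 by 0.57 (SE 0.26), while Cdkn1a of the same list differed by -1.365 (SE 0.69). In cortex Sgk1 differed by 0.94 (SE 0.42). Set between hippocampus and cortex, 11 of the 18 immediate early genes passed as lower in hippocampus and 2 as higher in control arrays (median -1.95). In exposed arrays 7 passed as lower and 3 as higher (median -1.16). The shares of all probe sets lower were 7.63% in control and 5.22% in exposed arrays. Called as higher were 1491 of 14804 probe sets in control and 1370 of 14804 in exposed arrays. Of the 13 glucocorticoid response genes, 3 passed as lower and 2 as higher in control arrays, and 2 and 2 in exposed arrays. The part of these responses in the Per1 values was not tested.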

How the data were processed

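Total RNA of 8 tissue samples was hybridised to 1-colour Affymetrix arrays, per the labels' protocols. The deposited table holds log2 values as normalized by the authors. RMA is listed among the submitters' processing notes, while its version, the summary level and the log base are not stated there; the scale was read as log2 because RMA normally gives that and the values span 1.59 to 19.93. After the third of probe sets with the lowest average over the arrays (under 3.94) had been dropped, limma 3.58.1 under R 4.3.3 estimated a mean for each of the 4 groups, with moderated two-sided tests whose prior variance followed the mean (4 residual and 7.92 prior degrees of freedom). P-values were adjusted by Benjamini-Hochberg over all probe sets tested, with a threshold of 0.05. Exposure averaged over the tissues used 1 average per arm and number, 4 in all. An exact permutation test of 2 against 2 arrays cannot give a p under 0.333, so limma's test was used. The fits were tested on simulated data.

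All 8 members were named, as were the 5 probe sets most like the most variable member. From each list, genes that passed in a comparison or had the 3 smallest p for exposure could be named, and not all of them were. Which of these to name, the array values of other genes, and the marker genes named singly, Ttr among them, were picked after they were seen. The members and lists were chosen with earlier results of these data known. Platform symbols were used; 1 probe set per gene, that with the highest mean, stands for list genes.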

Additional observations from a re-analysis of the deposited data

How the results depend on the processing

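Over 18 alternatives per comparison within or between tissues (16 for the average), no member was called for exposure, and 776 of 848 values of members kept their direction and their side of the threshold. In tissue comparisons the members called numbered 1 in place of 2 in exposed arrays with no filter, and in control arrays without the 2 arrays high in Ttr; they numbered 3 in exposed arrays with quantile normalization, with centring and with either replicate block, where Per1 was added. Without the arrays high in Ttr, Per1 took the place of Cry1 among the members called in exposed arrays. Leaving out 1 array gave 1 to 3 members in exposed and 1 to 2 in control arrays. Probe sets called for exposure in cortex (1 as reported) numbered 0 with quantile normalization, over all arrays or within each tissue (the within-tissue setting was added after seeing the data), and without the trend, 2 with array weights, the random replicate block or the 4 cortex arrays alone, 3 without the arrays high in Ttr, and 0 to 2 without 1 array. In hippocampus (1 as reported) they numbered 0 with either quantile normalization, without the trend, with array weights, without the arrays high in Ttr or with the 4 arrays alone, and 0 to 56 without 1 array (56 without control 6). For the difference between tissues (0 as reported) the count was 3 with the random and 1 with the fixed replicate block, and 0 to 30 without 1 array. For the average (1 as reported) it was 0 on single arrays, with or without the block, and 1 to 26 without 1 array and its partner. Tissue calls numbered 1155 in control arrays without the arrays high in Ttr, in place of 2620, and 1289 to 2532 without 1 array; in exposed arrays they were 1074 to 2440 without 1 array, in place of 2143.

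Same-numbered arrays of the tissues deviated together with r of 0.28 in exposed and -0.00088 in control arrays, and 4 of 8 arrays, all of them exposed, correlated best with their own number in the other tissue. The labels do not say whether a number marks a mouse, so the arrays were not treated as paired and pairing, in the exposed arm above all, was not settled. With the replicate block Per1 in exposed arrays passed (adjusted p = 0.023 random, 0.0091 fixed); no other call of a member changed.

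Without the arrays high in Ttr the direction turned for Per3 in cortex (-0.46), Cry2 in hippocampus (-0.23) and, for the difference, Per1 (-0.12) and Per3 (0.19). Centring turned Clock (-0.06) and Per2 (-0.035), and quantile normalization Per2 (-0.0475), for the tissues in exposed arrays. Directions also turned when 1 array was left out, with these lowest and highest values. For exposure in cortex they were Clock -0.615 to 0.055, Per1 -0.38 to 0.47, Per2 -0.58 to 0.67, Per3 -0.46 to 0.86, Cry1 -0.20 to 0.11, Cry2 -0.55 to 0.19. For exposure in hippocampus they were Arntl -0.79 to 0.09, Clock -0.16 to 0.49, Npas2 -0.01 to 0.32, Per2 -0.415 to 0.015, Per3 -0.38 to 0.24, Cry2 -0.23 to 0.59. For the difference between tissues they were Arntl -0.61 to 0.28, Per2 -0.87 to 0.38, Per3 -0.93 to 0.39, Cry2 -0.045 to 0.765. For the tissues in control arrays they were Per2 -0.28 to 0.98, Per3 -0.09 to 1.23. For the tissues in exposed arrays they were Clock -0.26 to 0.42, Per2 -0.11 to 0.32, Per3 -0.01 to 0.61. For the average they were Clock -0.32 to 0.20, Per1 -0.015 to 0.725, Per2 -0.50 to 0.34, Per3 -0.17 to 0.30. The cause was not tested.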
